A study of Mus musculus with 9 samples.

Results

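Peroxisomes are small organelles of lipid metabolism, and 33 genes that build them or work inside them were followed through the inguinal white fat of adult mice, which lies under the skin of the groin. The genes were picked by name for what their proteins do, and each was read from the row of the expression table that names this gene alone, the brightest where several did. All 33 had such a row and all 33 passed the filter on low values, out of 16898 genes tested. They comprise 13 peroxins (Pex genes), 3 ABC transporters, 13 enzymes of fatty acid breakdown and its side reactions, 3 enzymes of ether lipid synthesis and catalase. The study asked how close fat that has lost the transcription factor Zfp423 comes to the beige fat that forms in the cold. All mice carried Adiponectin-rtTA and TRE-Cre and ate chow with doxycycline for 28 days, starting at 8 weeks of age. The control group was Zfp423+/+ at room temperature, the knockout group was Zfp423loxP/loxP at room temperature, and the cold group was Zfp423+/+ and spent the last 14 of the 28 days at 6 °C. Each group has 3 arrays, and the labels do not say whether these came from separate mice, so p-values measure only the spread between arrays, which may be partly technical. The description of cold replicate 3 begins differently from all others, and the labels do not say what this marks.

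The model has limits that touch every value below. The doxycycline-dependent activator is driven by the promoter of the adipocyte gene for adiponectin, while RNA came from the whole fat pad, so other cells of the pad can keep Zfp423. The Zfp423 row read 8.74, 8.22 and 8.40 on the control arrays and 7.56, 8.15 and 8.04 on the knockout arrays on the log2 scale, a difference of -0.53 ± 0.20 (SE) that did not pass over all genes (limma adjusted p = 0.255). Its probes may lie outside the floxed part, so it is a weak check of the labels. Markers of adipocytes were bright in every group, with 7 of 8 tested and their mean log2 level between 17.06 and 17.54 on all arrays. Within its group, control replicate 3 was the middle array for 60.4% of genes, knockout replicate 3 for 66.9% and cold replicate 2 for 53.1%. Without these 3 arrays 0 genes passed in any of the 3 comparisons. At an unadjusted limma p under 0.05 there were 689 genes in the knockout comparison and 790 in the cold comparison. In the direct comparison of cold with knockout there were 985. With all 9 arrays these counts were 2733, 3427 and 4520. Chance alone would put a share of 0.05 of the 16898 tested genes under this limit. None of the 3 counts without the middle arrays was far above that share. Those 3 counts are therefore not read as differences that remain. A fit without the arrays nearest their group means has a larger spread by construction. Whether the middle arrays hold RNA independent of the others in their group was not tested, and if they do not, the p-values here are too small. In bulk tissue fewer cells of a type and less RNA per cell cannot be told apart.

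Peroxisomes shorten very-long-chain and branched fatty acids by beta-oxidation, start the synthesis of ether lipids such as plasmalogens, and break down the hydrogen peroxide that their oxidases make. Peroxins insert the membrane proteins, import finished enzymes from the cytosol and divide the organelle, and ABC transporters carry fatty acyl-CoA across its membrane. Brown and beige fat is known to be rich in peroxisomes, and the nuclear receptor PPARalpha, encoded by Ppara, is a known activator of their oxidation genes. Here Ucp1, the uncoupling protein that marks thermogenic fat, rose by 6.90 ± 0.47 (SE) log2 units in knockouts and by 6.61 ± 0.47 in the cold (limma adjusted p = 0.00863 and 0.00226). The knockout call of Ucp1 was lost without control replicate 1 or 3, knockout replicate 3 or cold replicate 2 (limma adjusted p = 0.0528, 0.106, 0.0943 and 0.0555).

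The differences of the peroxisomal genes were smaller. In knockouts their log2 differences from control had a median of 0.12 (0.02 over all genes tested) and ran from -1.04 for Abcd2 to 2.13 for Ehhadh, with 22 of 33 above 0 (56.5% of all genes tested). That median was 0.03 without knockout replicate 2, 0.08 without control replicate 2 and 0.21 without knockout replicate 1. None passed: 0 of 33 at a limma adjusted p under 0.05, against 0.367% of all genes in either direction and 0.225% in the higher direction. At an unadjusted limma p under 0.05 there were 7 of 33, or 21.2%, against 16.2% of all genes. In the cold the median was 0.27 (-0.02 over all genes tested), the range ran from -0.47 for Far1 to 1.29 for Abcd3, and 28 of 33 were above 0 (43.3% of all genes tested). There 1 of 33 passed, the thiolase gene Acaa1b, which rose (1.51% of all genes passed, 1.32% in the higher direction), and 13, or 39.4%, had an unadjusted limma p under 0.05 (20.3% of all genes). The comparisons share the control arrays, so the values are set side by side and not correlated. In the F test over the 3 groups, Acaa1b, Ehhadh and Abcd2 passed (limma adjusted p = 0.0290, 0.0453 and 0.0458), 3 of 33 against 2.67% of all genes.

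**Figure D1:**
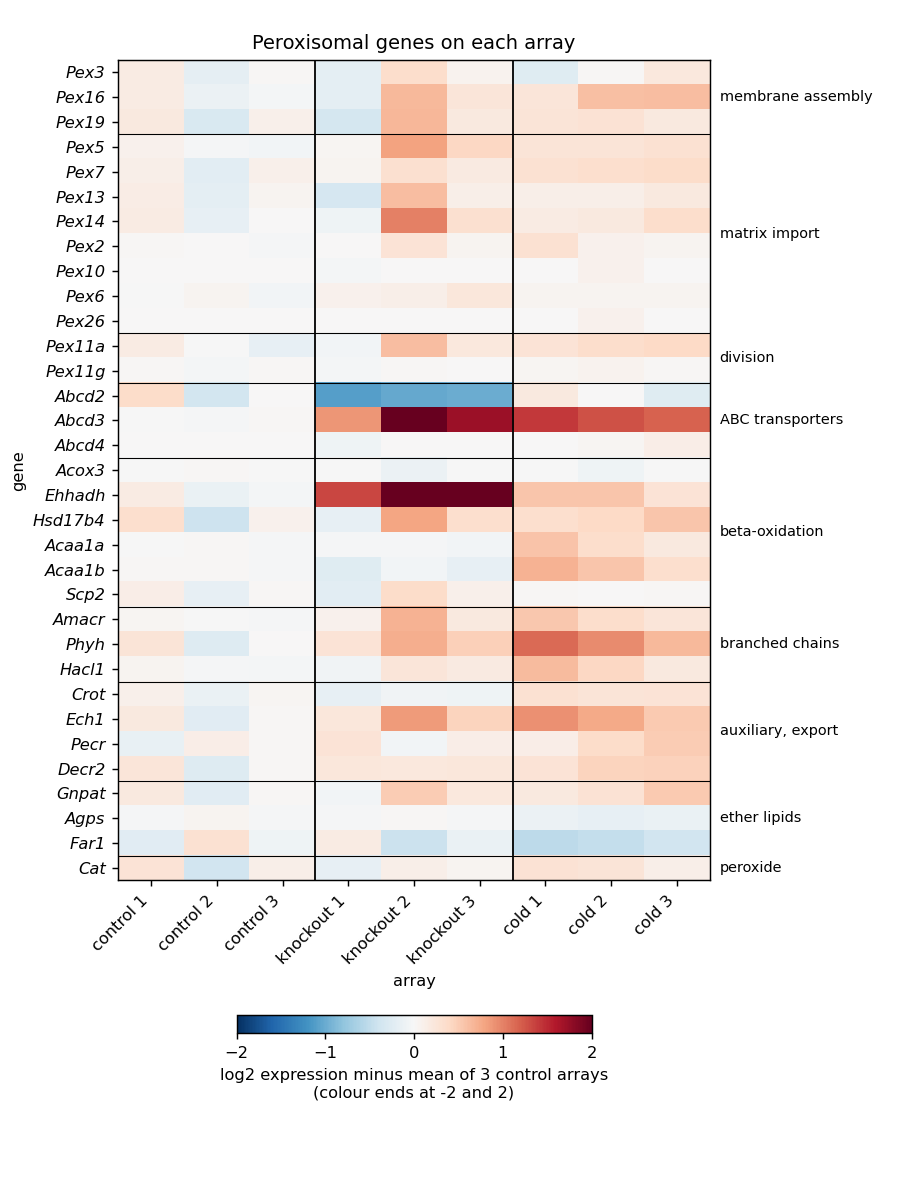
Heat map of the 33 peroxisomal genes (vertical axis, by role) on the 9 arrays (horizontal axis), coloured by log2 expression minus the mean of the 3 control arrays, with colours ending at -2 and 2. Ehhadh and Abcd3 are high on the knockout arrays, Abcd2 is low there, and most rows of the cold arrays are a light red.

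A looser count is that of genes whose arrays do not overlap between groups. In knockouts 6 genes had all 3 arrays above all 3 control arrays (Pex6, Abcd3, Ehhadh, Amacr, Phyh and Ech1), or 18.2%, against 9.31% of all genes. The 3 genes with all knockout arrays below the controls were Abcd2, Acaa1a and Acaa1b, or 9.09% against 8.01%. In the cold 15 genes lay wholly above the controls, or 45.5% against 14.6% of all genes, and 2, Agps and Far1, lay wholly below them, or 6.06% against 18.1%. The exact permutation test of 3 against 3 arrays cannot give a two-sided p below 0.1, and it gave 0.1 for each of these.

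The knockout arrays differed among themselves in these genes. The mean over the 33 genes, relative to the control mean, was 0.00, 0.41 and 0.21 on knockout replicates 1, 2 and 3, against 0.28, 0.28 and 0.25 on the cold arrays and 0.10, -0.10 and 0.00 on the control arrays. Knockout replicate 1 was the lowest of its group for 27 of 33 genes and replicate 2 the highest for 24 of 33. Thermogenic markers (8 of 8 tested) followed the same order, at 3.17, 5.85 and 5.01 above the control mean on knockout replicates 1, 2 and 3. T cell markers (7 of 8 tested) stood at 1.47, -0.22 and 0.86 and macrophage markers (8 of 8) at 0.37, -1.13 and -0.21 on these arrays. The mean log2 level of the T cell markers ran from 9.14 to 9.81 in controls, 9.25 to 10.94 in knockouts and 8.43 to 8.55 in the cold, and that of the macrophage markers from 9.64 to 10.47, 8.91 to 10.41 and 8.87 to 9.06. B cell markers (7 of 8) ran from 9.34 to 10.93, 9.25 to 10.63 and 8.47 to 9.51, and progenitor markers (5 of 8) from 10.86 to 11.42, 10.01 to 10.77 and 10.06 to 10.21. Endothelial markers (8 of 8) ran from 10.64 to 11.05, 10.21 to 10.97 and 10.88 to 11.15. Skeletal muscle markers (8 of 8) ran from 11.15 to 11.81, 9.86 to 11.72 and 7.01 to 11.79, with cold replicate 3 the lowest, and all 8 epithelial markers were below the filter. Their part in the values of the peroxisomal genes was not tested.

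The RefSeq table of mouse assembly GRCm38.p6 held 27 of the 33 genes with 31 promoters, and those of 5 genes, chosen after the values were seen, are shown. Ehhadh had the largest knockout difference, Acaa1b and Crot passed in a comparison, Acaa1a is the close paralog of Acaa1b, and Cat holds the closest match to the element that PPAR binds together with its partner RXR. The promoters of Abcd3 and Phyh were searched with the rest and are not printed. Abcd2, which also passed in a comparison, had no promoter in that table and was not searched. Each line gives the 250 bases before the start site, 5′ to 3′ on the gene's strand, and capitals mark the match in Cat.
Ehhadh, chr16:21787835-21788084, minus strand: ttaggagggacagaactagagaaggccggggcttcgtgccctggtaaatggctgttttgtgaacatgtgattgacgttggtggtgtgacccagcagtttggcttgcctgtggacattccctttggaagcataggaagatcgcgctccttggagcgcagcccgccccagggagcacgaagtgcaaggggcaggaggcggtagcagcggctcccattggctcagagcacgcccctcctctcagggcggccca
Acaa1a, chr9:119341044-119341293, plus strand: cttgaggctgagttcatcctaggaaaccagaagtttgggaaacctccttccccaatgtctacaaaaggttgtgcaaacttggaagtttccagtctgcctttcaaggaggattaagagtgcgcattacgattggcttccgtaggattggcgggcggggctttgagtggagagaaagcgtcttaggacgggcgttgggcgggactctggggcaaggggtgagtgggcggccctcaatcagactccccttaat
Acaa1b, chr9:119157094-119157343, minus strand: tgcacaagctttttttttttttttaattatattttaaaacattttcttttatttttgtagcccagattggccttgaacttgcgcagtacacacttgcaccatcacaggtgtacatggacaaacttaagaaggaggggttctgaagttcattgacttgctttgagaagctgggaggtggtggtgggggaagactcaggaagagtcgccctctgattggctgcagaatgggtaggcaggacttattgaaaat
Crot, chr5:8997147-8997396, minus strand: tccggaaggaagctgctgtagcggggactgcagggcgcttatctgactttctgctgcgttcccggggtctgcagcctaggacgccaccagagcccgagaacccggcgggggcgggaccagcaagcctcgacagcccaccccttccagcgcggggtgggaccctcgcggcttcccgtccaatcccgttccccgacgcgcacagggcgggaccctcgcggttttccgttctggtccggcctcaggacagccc
Cat, chr2:103485154-103485403, minus strand: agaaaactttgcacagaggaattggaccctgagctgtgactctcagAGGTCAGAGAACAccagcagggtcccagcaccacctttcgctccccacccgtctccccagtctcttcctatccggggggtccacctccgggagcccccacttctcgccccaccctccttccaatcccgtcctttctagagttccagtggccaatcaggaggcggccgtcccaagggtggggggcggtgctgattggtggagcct
The element is a direct repeat of AGGTCA with 1 base between the copies, searched on both strands from 250 bases before to 50 after the start. With up to 2 mismatches over the 12 repeat bases, 1 of 31 promoters (3.23%) held it against 3.86% of 32851 promoters of the same length. That match is AGGTCAGAGAACA in Cat, at position -204 relative to the start, and with up to 1 mismatch there was no match among the 31 (0.554% of all promoters). A lone AGGTCA stood in 4 of 31 (12.9%, against 16.3%), those of Pex11g, Scp2, Phyh and Cat, where it overlaps the repeat. No match says only that these letters are not in this window. The printed windows differ in base composition: C and G make up 41.6% of the Acaa1b window, with 2 CpG dinucleotides, against 53.6% and 10 in Acaa1a, 60.4% and 12 in Ehhadh, 62% and 9 in Cat and 69.6% and 25 in Crot. Over all 31 promoters of the peroxisomal genes the median was 60% and 15 CpG, against 52.4% and 6 over all promoters. The Acaa1a and Acaa1b windows were identical at 148 of 288 aligned positions.

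The membrane assembly genes Pex3, Pex16 and Pex19 encode the proteins that receive and insert peroxisomal membrane proteins, and 0 of the 3 passed in any comparison. Pex16, which marks the place of insertion, read 9.77, 9.49 and 9.56 on control replicates 1, 2 and 3, the order used for all array values here. It read 9.42, 10.26 and 9.85 on the knockout arrays and 9.85, 10.20 and 10.22 on the cold arrays. The cold arrays lay above all control arrays, while the knockout arrays straddled them. The log2 difference from control was 0.24 ± 0.21 (SE) in knockouts and 0.48 ± 0.21 in the cold (limma adjusted p = 0.623 and 0.253). Pex3 and Pex19 differed by 0.08 and 0.17 in knockouts and by -0.00 and 0.25 in the cold.

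Of the 8 genes of matrix import, the step that brings folded enzymes into the organelle, 0 passed in any comparison. Pex5 and Pex7 encode the receptors that recognise the targeting signals of these enzymes. Pex5 read 8.44, 8.32 and 8.31 on the control arrays, 8.40, 9.15 and 8.77 on the knockout arrays and 8.61, 8.61 and 8.66 on the cold arrays. The cold arrays were tight and above the controls, and knockout replicate 1 lay within the control range while the other knockout arrays lay above it. The differences from control were 0.42 ± 0.17 in knockouts and 0.27 ± 0.17 in the cold (limma adjusted p = 0.289 and 0.391). Pex7 read 9.02, 8.71 and 9.02 in controls, 8.98, 9.24 and 9.09 in knockouts and 9.22, 9.26 and 9.29 in the cold. Only its cold arrays were clear of the controls, with a difference of 0.34 ± 0.10 (limma adjusted p = 0.145) against 0.19 ± 0.10 in knockouts (limma adjusted p = 0.412).

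The docking proteins Pex13 and Pex14 differed by 0.12 and 0.41 in knockouts and by 0.14 and 0.24 in the cold, with knockout replicate 2 the highest array for each (10.78 and 9.01). The RING-type ubiquitin ligase genes Pex2 and Pex10 differed by 0.11 and -0.01 in knockouts and by 0.15 and 0.03 in the cold. Pex6, an ATPase that pulls the receptor back out, differed by 0.14 and 0.06, and its membrane anchor Pex26 by -0.00 and 0.03. Several rows repeat exact values, which a fit reads as a small spread: Pex26 held the same value on 7 of 9 arrays, Abcd4 on 6, Pex10 and Acox3 on 5, and Pex6 and Pex11g on 4.

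Peroxisomes multiply by elongation and division, for which the Pex11 proteins shape the membrane. Pex11a, the inducible form, read 9.55, 9.37 and 9.22 on the control arrays, 9.33, 9.99 and 9.59 on the knockout arrays and 9.64, 9.73 and 9.77 on the cold arrays. The cold arrays lay just above the highest control, and the knockout arrays overlapped the controls. Its difference was 0.26 ± 0.16 in knockouts and 0.34 ± 0.16 in the cold (limma adjusted p = 0.484 and 0.288), and Pex11g stood at -0.00 and 0.04.

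Among the ABC transporters, Abcd3 and Abcd2 stood on opposite sides of control in knockouts. Abcd3 encodes the transporter for branched and dicarboxylic acyl-CoA. It read 12.20, 12.19 and 12.24 on the control arrays, 13.09, 14.65 and 13.92 on the knockout arrays and 13.62, 13.48 and 13.39 on the cold arrays. Every knockout and cold array was above every control array, and the knockout arrays were spread far more widely than the others. The SD of Abcd3 was 0.03 on the control arrays, 0.78 on the knockout arrays and 0.12 on the cold arrays. The fit shares its estimate of the spread across the groups, so the error of the cold difference also carries the knockout spread. The mean was 3.20-fold the control level in knockouts (log2 difference 1.68 ± 0.34, limma adjusted p = 0.0826) and 2.44-fold in the cold (1.29 ± 0.34, limma adjusted p = 0.115), and neither passed.

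Abcd2 encodes a carrier of very-long-chain and polyunsaturated acyl-CoA. It read 17.04, 16.31 and 16.67 on the control arrays, 15.58, 15.66 and 15.68 on the knockout arrays and 16.88, 16.69 and 16.44 on the cold arrays. The knockout arrays lay together below all others, and the cold arrays lay within the control range. The difference was -1.04 ± 0.19 in knockouts, short of the threshold (limma adjusted p = 0.0702), and -0.01 ± 0.19 in the cold (limma adjusted p = 0.998). Set against each other, the cold group was higher than the knockout group by 1.03 ± 0.19 log2 units, or 2.04-fold (limma adjusted p = 0.0420). Abcd4, a family member known to act in vitamin export from lysosomes, stood at -0.03 in knockouts and 0.06 in the cold.

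**Figure D2:**
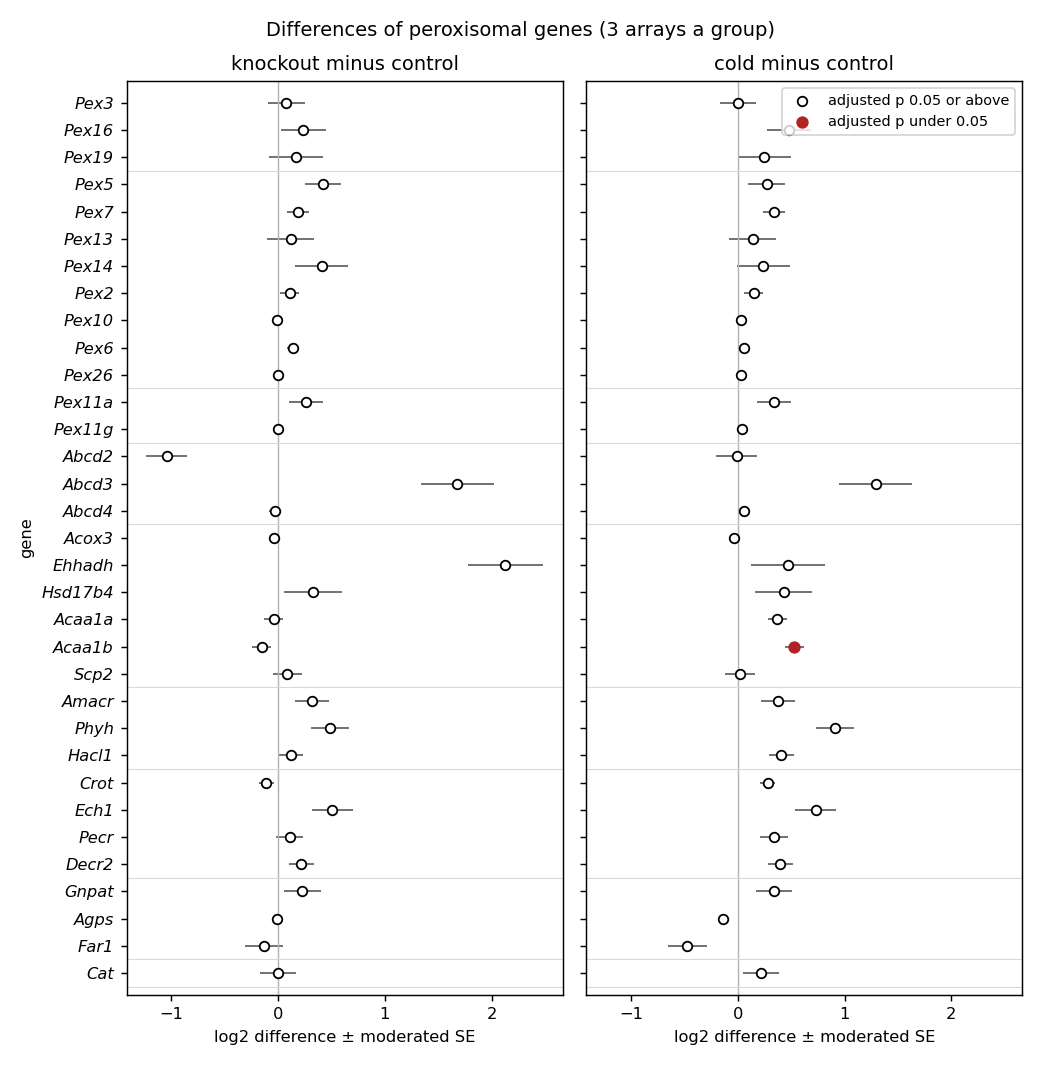
Log2 difference from the control group (horizontal axis) for each of the 33 genes (vertical axis, by role, top to bottom as in the heat map), knockouts on the left and cold on the right, with points for estimates and bars for the moderated standard error. Ehhadh at 2.13 and Abcd3 at 1.68 lead the knockout panel, Abcd2 lies at -1.04, and Acaa1b in the cold is the filled point past the threshold.

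In beta-oxidation itself, Ehhadh had the largest difference of the 33 genes in knockouts. It encodes the bifunctional enzyme that hydrates and dehydrogenates straight-chain and dicarboxylic acyl-CoA. It read 11.39, 11.08 and 11.18 on the control arrays, 12.56, 14.12 and 13.36 on the knockout arrays and 11.78, 11.78 and 11.50 on the cold arrays. All knockout arrays lay above all cold arrays, which in turn lay above all control arrays. The SD was 0.16 in controls, 0.78 in knockouts and 0.16 in the cold, and the shared spread again enters the error of the cold difference. Knockouts stood at 4.36-fold the control level (2.13 ± 0.35, limma adjusted p = 0.0587) and cold at 1.38-fold (0.47 ± 0.35, limma adjusted p = 0.469), neither of which passed. The cold group was lower than the knockout group by a log2 difference of -1.66 ± 0.35 (limma adjusted p = 0.0572), just outside the threshold, while the F test over the 3 groups was past it as given above. The other bifunctional enzyme, Hsd17b4, which serves branched substrates, differed by 0.33 ± 0.27 in knockouts and 0.43 ± 0.27 in the cold without passing (limma adjusted p = 0.586 and 0.389).

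The thiolases, which cut acetyl-CoA from the chain in the last step, include the gene that passed in the cold. Acaa1b read 8.41, 8.41 and 8.36 on the control arrays, 8.16, 8.34 and 8.23 on the knockout arrays and 9.09, 8.95 and 8.73 on the cold arrays. The 3 groups did not overlap, with cold on top and knockouts at the bottom. Acaa1b rose in the cold by 0.53 ± 0.09 log2 units, or 1.44-fold (limma adjusted p = 0.0466), and stood at -0.15 ± 0.09 in knockouts (limma adjusted p = 0.464). The cold group was higher than the knockout group by 0.68 ± 0.09, or 1.60-fold (limma adjusted p = 0.0203). Its close paralog Acaa1a showed 0.37 ± 0.09 in the cold and -0.04 ± 0.09 in knockouts without passing (limma adjusted p = 0.0852 and 0.864). The transcripts of the paralogs are very similar, and whether the probes of their rows part them is unknown here. Acox3, an oxidase of the first step, and the thiolase Scp2 differed by -0.04 and 0.09 in knockouts and by -0.03 and 0.02 in the cold.

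**Figure D3:**
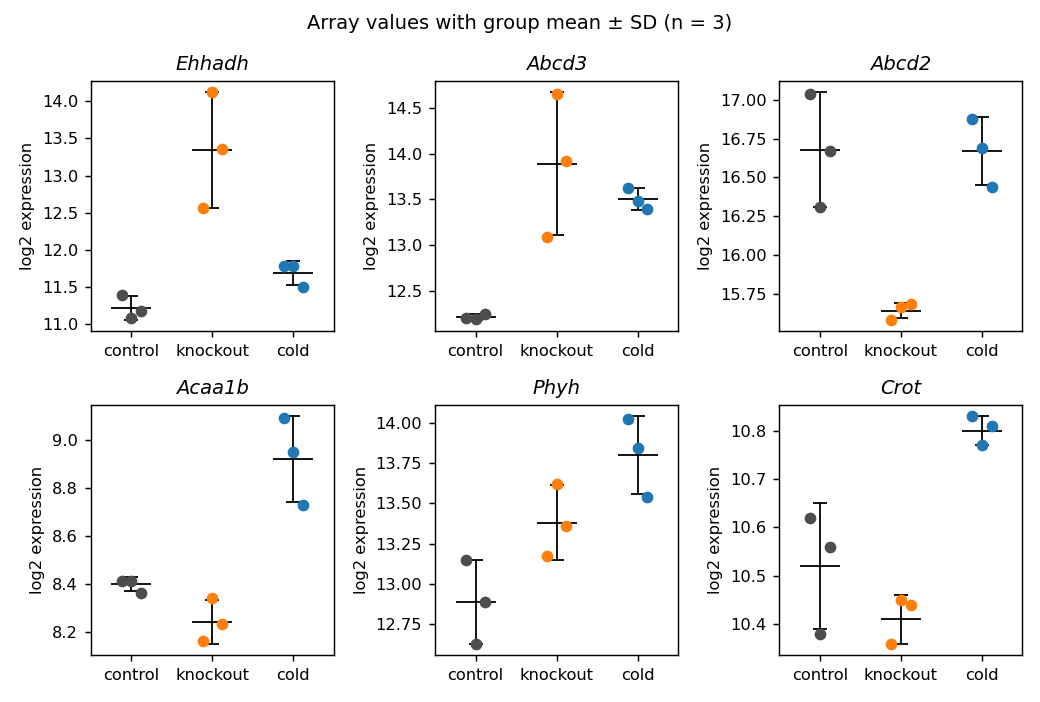
Log2 expression (vertical axis) of 6 genes on every array, by group (horizontal axis); dots are replicates 1, 2 and 3 from left to right, and the line and bars give the mean ± SD of 3 arrays. By group mean, Ehhadh and Abcd3 are highest in knockouts, Abcd2 is lowest there, and Acaa1b, Phyh and Crot are highest in the cold. The knockout and cold arrays of Abcd3 and of Phyh overlap. The vertical axes differ between genes and do not start at 0.

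Branched chains such as phytanic acid need an extra step before beta-oxidation. Phyh encodes the hydroxylase of that step and had the second largest difference in the cold. It read 13.15, 12.63 and 12.89 on the control arrays, 13.17, 13.62 and 13.36 on the knockout arrays and 14.02, 13.84 and 13.54 on the cold arrays. The lowest knockout array was only just above the highest control, and all cold arrays were clear of the controls. The difference was 0.91 ± 0.18 in the cold, or 1.88-fold, and 0.49 ± 0.18 in knockouts (limma adjusted p = 0.0646 and 0.244), and neither passed. The lyase Hacl1, which acts next on the product, and the racemase Amacr, which turns the methyl group for oxidation, differed by 0.41 and 0.38 in the cold and by 0.12 and 0.32 in knockouts. All 3 genes had cold arrays wholly above the controls, as had 14.6% of all genes tested, and 0 of the 3 passed in the cold.

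The auxiliary enzymes handle double bonds that beta-oxidation cannot pass, and Crot exports the shortened chains as carnitine esters. Ech1, the dienoyl-CoA isomerase, read 11.64, 11.23 and 11.48 on the control arrays, 11.67, 12.30 and 11.90 on the knockout arrays and 12.36, 12.21 and 11.96 on the cold arrays. Knockout replicate 1 was barely above the highest control and the rest were clear of it. The differences were 0.51 ± 0.19 in knockouts and 0.73 ± 0.19 in the cold (limma adjusted p = 0.244 and 0.110). Its protein is also found in mitochondria.

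Crot read 10.62, 10.38 and 10.56 on the control arrays, 10.36, 10.45 and 10.44 on the knockout arrays and 10.83, 10.77 and 10.81 on the cold arrays. The cold arrays were above all others, and the knockout arrays lay near the lowest control array or below it. The difference from control was -0.11 ± 0.07 in knockouts and 0.28 ± 0.07 in the cold (limma adjusted p = 0.477 and 0.0969). Cold exceeded knockout by 0.39 ± 0.07, or 1.31-fold, which passed (limma adjusted p = 0.0388). The reductases Decr2 and Pecr differed by 0.40 and 0.34 in the cold and by 0.22 and 0.11 in knockouts.

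Ether lipid synthesis starts in the peroxisome with Gnpat and Agps and draws fatty alcohol from Far1, and its genes held the lowest values of the cold comparison. Far1, the reductase that sets the supply of fatty alcohol, read 9.98, 10.50 and 10.12 on the control arrays, 10.36, 9.77 and 10.08 on the knockout arrays and 9.67, 9.73 and 9.81 on the cold arrays. The cold arrays lay below all controls, and the knockout arrays overlapped them, with replicate 2 below them all. The difference was -0.13 ± 0.18 in knockouts and -0.47 ± 0.18 in the cold (limma adjusted p = 0.754 and 0.213). Agps, the synthase of the ether bond, stood at -0.01 in knockouts and -0.14 ± 0.04 in the cold (limma adjusted p = 0.129 for the latter).

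Gnpat, the acyltransferase of the opening step, read 13.93, 13.51 and 13.75 on the control arrays, 13.68, 14.24 and 13.94 on the knockout arrays and 13.93, 14.02 and 14.26 on the cold arrays. Its groups overlapped in every comparison. The differences were 0.23 ± 0.17 in knockouts and 0.34 ± 0.17 in the cold (limma adjusted p = 0.557 and 0.302).

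Catalase, the enzyme that removes hydrogen peroxide and the usual marker of the peroxisome, did not pass in any comparison. Cat read 17.84, 17.18 and 17.69 on the control arrays, 17.40, 17.69 and 17.63 on the knockout arrays and 17.86, 17.83 and 17.69 on the cold arrays. The spread of the control arrays covered nearly all the other values. The difference was 0.00 ± 0.17 in knockouts and 0.22 ± 0.17 in the cold (limma adjusted p = 1.00 and 0.482). The highest value of the whole table was 19.93, and differences of very bright rows may be compressed near it, which was not tested. None of the 33 genes had a mean above 18, but Ucp1 read 19.92 and 19.68 on knockout replicates 2 and 3.

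The cold and knockout groups were also compared directly. Of the 33 genes, 3 passed and all 3 were higher in the cold: Abcd2, Acaa1b and Crot (2.40% of all genes passed, 1.24% in the higher direction). At an unadjusted limma p under 0.05 there were 7 of 33, or 21.2%, below the 26.7% of all genes. The median difference was 0.07 (-0.03 over all genes tested), and the range ran from -1.66 for Ehhadh to 1.03 for Abcd2. Over all genes 210 were higher and 195 lower, and after quantile normalization 356 and 212.

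The calls rest on few arrays. Acaa1b in the cold lost its call without control replicate 1, 2 or 3 (limma adjusted p = 0.0943, 0.107 and 0.199), without knockout replicate 3 (0.113) and without cold replicate 1 or 2 (0.108 and 0.189). The difference itself stayed between 0.44 and 0.63. In cold against knockout, leaving out control replicate 3, knockout replicate 1 or 3 or cold replicate 1 or 2 ended the call of each of the 3 genes. For Abcd2 the limma adjusted p was then 0.0992, 0.0883, 0.161, 0.114 and 0.174, for Acaa1b 0.0611, 0.0552, 0.106, 0.0521 and 0.112, and for Crot 0.0909, 0.0789, 0.154, 0.111 and 0.151. Cold replicate 3 also ended the calls of Abcd2 (0.0714) and Crot (0.102). In the other direction, without knockout replicate 1 the knockout differences of Ehhadh, Abcd3 and Pex5 passed, at 2.52, 2.07 and 0.60 (limma adjusted p = 0.0106, 0.0119 and 0.0411). Without control replicate 2 that of Abcd2 passed, at -1.22 (limma adjusted p = 0.0312). Calls outside the peroxisomal genes changed too. Without knockout replicate 1, 13 of 20 mitochondrial fatty acid oxidation genes rose in knockouts, against 5 with all arrays. Of 19 citric acid cycle and pyruvate dehydrogenase genes 18 rose there, against 3. Without control replicate 2 these counts were 5 and 4. In the cold, Phyh and Abcd3 passed without knockout replicate 1 (limma adjusted p = 0.0452 and 0.0194) and without knockout replicate 2 (0.0385 and 0.0239), and Ech1 without knockout replicate 2 (0.0454). In cold against knockout, Ehhadh passed without knockout replicate 1 (-2.05, limma adjusted p = 0.0284). It also passed without knockout replicate 2 (-1.27, limma adjusted p = 0.0247). Acaa1a passed there without knockout replicate 2 or cold replicate 3 (limma adjusted p = 0.0432 and 0.0427). In the cold the mitochondrial lists held 16 and 19 risen genes without knockout replicate 1 or 2, against 13 and 15 with all arrays. For cold against knockout they held 1 and 2 higher genes with all arrays and 0 and 1 without knockout replicate 1. Without knockout replicate 2 there were 6 and 11, and without cold replicate 3 there were 0 in each. Whether the gained calls are particular to the peroxisomal genes was not tested.

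Genes of peroxisomes and of linked lipid and redox steps, from a list of 74 outside the 33 and not all peroxisomal, give the surroundings. Of these, 48 were tested, 16 were below the filter and 10 were not analysed here. In knockouts 1 of 48 rose and 0 fell, with a median difference of 0.07: Slc27a2, a very-long-chain acyl-CoA synthetase, at 3.81 ± 0.54 (limma adjusted p = 0.0469). In the cold 6 rose and 0 fell, with a median of 0.22. These were Pmvk (1.53 ± 0.20) and Idi1 (0.59 ± 0.07) of isoprenoid synthesis, the reductase Zadh2 (1.38 ± 0.05), the CoA diphosphatase Nudt7 (1.28 ± 0.21), the D-aspartate oxidase Ddo (0.98 ± 0.11) and the isocitrate dehydrogenase Idh1 (0.84 ± 0.15), with limma adjusted p between 0.000289 and 0.0443. Against knockouts 5 of 48 were higher in the cold and 0 lower: Pmvk at 1.72, Zadh2 at 1.14, Idh1 at 0.99, Idi1 at 0.95 and the purine oxidase Xdh at 0.92 (limma adjusted p between 0.000608 and 0.0378). Leaving out single arrays, Zadh2 kept its calls in both comparisons throughout. In the cold comparison 1 to 9 genes of the list rose, fewest without control replicate 3 or cold replicate 2. Slc27a2 in knockouts kept its call without control replicate 2 or knockout replicate 1 and lost it without any other array (limma adjusted p from 0.0583 to 0.239).

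Of the regulators of peroxisomes and of oxidation, 11 of 14 were tested and 1 passed, in knockouts. Ppara, the receptor that activates peroxisomal oxidation genes, rose there by 2.26 ± 0.31 (limma adjusted p = 0.0469) and stood at 1.03 ± 0.31 in the cold (0.149). The knockout call of Ppara held without control replicate 2 or knockout replicate 1 and was lost without any other array (limma adjusted p from 0.0534 to 0.239). The adipocyte receptor Pparg stood at -0.49 ± 0.22 and 0.27 ± 0.22 (limma adjusted p = 0.343 and 0.516). The coactivator Ppargc1a stood at 3.29 ± 0.89 and 1.73 ± 0.89 (limma adjusted p = 0.143 and 0.312). No link between these values and the peroxisomal genes was tested.

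Mitochondria, the other site of fatty acid oxidation, showed larger differences. Of 20 mitochondrial fatty acid oxidation genes tested, 5 rose in knockouts and 13 in the cold and 0 fell, with median differences of 1.03 and 1.27. Of 19 citric acid cycle and pyruvate dehydrogenase genes tested, 3 rose in knockouts and 15 in the cold and 0 fell, with medians of 1.04 and 1.48. Beside these, the medians of the 33 peroxisomal genes were 0.12 and 0.27. The knockout calls of both mitochondrial lists fell to 0 without control replicate 1 or 3, knockout replicate 3 or cold replicate 2 or 3, and to 1 and 0 without cold replicate 1, while without knockout replicate 1 there were 13 and 18. In the cold 1 to 16 and 1 to 19 rose when single arrays were left out, with 1 in each list without control replicate 3 or cold replicate 2. These medians are descriptions of the lists, and the difference between them was not tested.

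**Figure D4:**
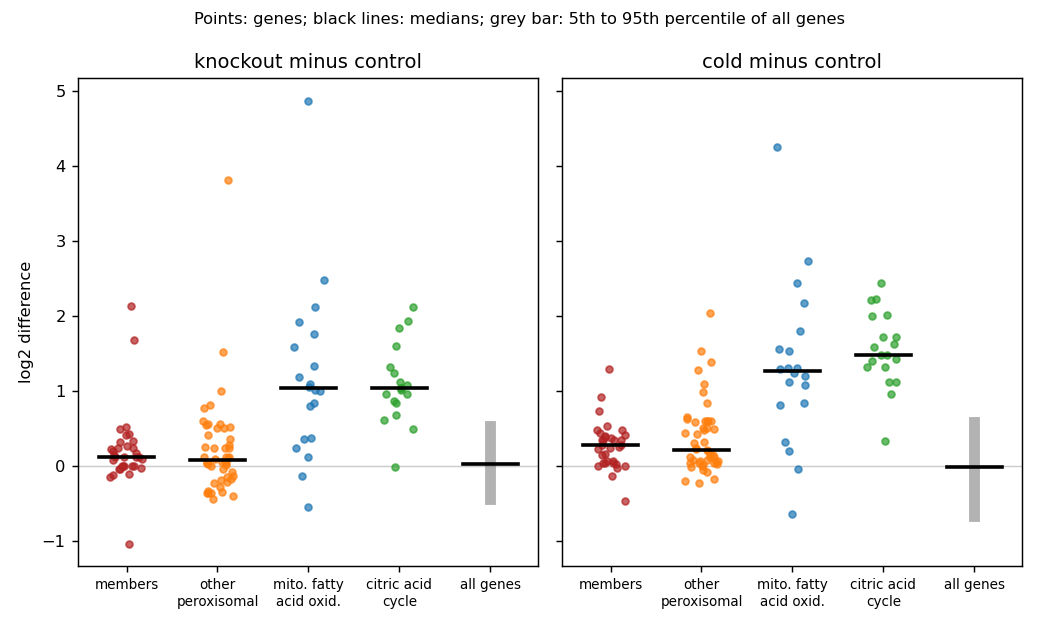
Log2 difference from control (vertical axis), for knockouts on the left and cold on the right. Points are the 33 peroxisomal genes and 48 genes of the wider list, marked other peroxisomal. The mitochondrial lists are 20 fatty acid oxidation genes and 19 citric acid cycle and pyruvate dehydrogenase genes. Black lines give medians, and the grey bar gives the 5th to 95th percentile of all 16898 genes. The medians of both mitochondrial lists lie at or above 1.03, and those of the 33 genes and of the 48 genes at or below 0.27.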

How the data were processed

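Biotin-labelled total RNA of each sample was measured on 1 Affymetrix MTA 1.0 array. The log2 values of 72688 rows on 9 arrays are those the authors deposited, made with Affymetrix Expression Console per the submitters' processing notes. Its version, the summarisation, the normalization and the build are not given in sources used here, and log2 was taken from the values (1.84 to 19.93). They carry no counts, and the small number of arrays limits precision. Row names came from the platform annotation, with symbols updated from the RefSeq table of GRCm38.p6. Of 65770 transcript clusters, 31051 name 1 symbol, 1534 several and 33185 none. Rows with 1 symbol and a mean of at least 5.31, the median of all row means, were kept, and the brightest row of a gene was used, which left 16898 genes.

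Group means over all 9 arrays were fitted with limma 3.58.1 under R 4.3.3 (lmFit and eBayes, 6 residual and 1.23 prior degrees of freedom). The groups share their estimate of the spread, so the error of a comparison also carries the spread of the group left out of it. Tests were two-sided, with Benjamini-Hochberg adjustment over all 16898 genes and a threshold of 0.05; errors are moderated standard errors. The fit was tested on simulated data. Promoter motifs were searched in Python 3.11.15 and promoters aligned with Biopython 1.88. Targeting signals of the proteins were planned and are not analysed here. Named with array values are genes past the threshold in any comparison and, per role, the gene with the largest difference from control. The genes and the lists were chosen with earlier results of these data known. The 18 alternatives covered pairing, normalization, filters, row choice, variance model, array weights, groups in the fit and arrays left out.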

Additional observations from a re-analysis of the deposited data

How the results depend on the processing

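Over the 18 alternatives, the differences of the 33 genes kept their sign in 1703 of 1764 values. The 61 that changed sign were below the threshold on both sides and came from differences of at most 0.18. Counts are given for knockout against control, then cold against control, then cold against knockout, beside 62, 255 and 405 genes and 0, 1 and 3 of the 33 in the fit reported above. With a block for the replicate number, 1, 42 and 36 genes passed and 0 of the 33 in each. Arrays of the same number did not deviate together (correlations from -0.46 to 0.08), so the numbers were not taken to pair the samples. Some arrays of different numbers did. The correlation was 0.45 for control replicate 1 with knockout replicate 2 and 0.47 for control replicate 2 with knockout replicate 1. What these arrays share was not tested, and the fit takes them as independent. Without a filter on row means 14, 130 and 222 genes passed and 0, 0 and 1 of the 33, and with the filter at the 75th percentile 146, 324 and 708 genes and 2, 2 and 5. With trend and robust on, 37 genes passed in the knockout comparison. In the cold comparison 0 of the 33 passed with this setting, for which the count over all genes is not given here. With only the compared groups fitted, 0 genes passed in the knockout comparison (1950 at an unadjusted limma p under 0.05) and 1346 in the cold comparison, with 3 of the 33. Without the middle arrays 0 genes and 0 of the 33 passed in each comparison. After quantile normalization 3 of the 33 passed in the cold. Over all genes 335 then rose and 37 fell there, beside 223 and 32 in the fit reported above. The medians of the 33 became 0.33 for cold against control and 0.14 for cold against knockout. Over all genes these medians moved as well, from -0.02 and -0.03 to 0.04 in each. Array weights, whose estimation did not converge and which put most weight on knockout replicate 3, gave 11818, 8973 and 9973 genes, 22 of the 33 in each comparison and a median of 0.23 in the cold.

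Leaving out each array in turn gave 0 to 833, 23 to 985 and 14 to 2694 genes, and 0 to 3, 0 to 4 and 0 to 5 of the 33. The median ran from 0.03 to 0.21 for knockout against control, from 0.21 to 0.33 for cold against control and from 0.02 to 0.16 for cold against knockout. Values near 0 changed sign without a call on either side: Cat in knockouts was -0.05 with array weights, and Abcd2 in the cold 0.19 after quantile normalization and 0.01 with array weights. Leaving out arrays, Cat in knockouts ran from -0.19 to 0.14, Far1 in knockouts from -0.28 to 0.02 and Abcd2 in the cold from -0.19 to 0.18. In cold against knockout, Pex5 ran from -0.33 to 0.05, Pex11a from -0.07 to 0.26 and Gnpat from -0.02 to 0.26. Fewer arrays leave fewer degrees of freedom, and more genes tested widen the adjustment. Yet leaving out single arrays raised some counts and lowered others. A knockout array left out cannot move the differences of cold from control, only the shared spread and its degrees of freedom. Of 20 mitochondrial fatty acid oxidation genes, 13 rose in the cold in the fit reported above. That count was 16 without knockout replicate 1 or 2 and 5 without knockout replicate 3, each time with a median of 1.27. For the other counts the cause was not tested.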
